A study of Mus musculus with 10 samples.

Results

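The genes described here are 9 genes of retinoid binding and reception: the extracellular carrier Rbp4, the cellular retinoic acid binding proteins Crabp1 and Crabp2, the retinoic acid receptors Rara, Rarb and Rarg, and the retinoid X receptors Rxra, Rxrb and Rxrg. They were taken by symbol from the 32531 gene symbols counted in every library, and were chosen with their ratio to input RNA and their level per treatment group already known. The samples were whole striatum of adult mice of the Chat-TRAP line DW167, which carry an EGFP-tagged ribosomal protein Rpl10a in cells that express Chat, the enzyme that makes acetylcholine. All mice, those of the input included, carried this transgene. In translating ribosome affinity purification (TRAP), tagged polysomes are immunopurified with antibodies against EGFP and the RNA bound to them is sequenced. Immunopurified RNA was sequenced from 3 libraries each of mice with saline self-administration, mice with cocaine self-administration and yoked controls, and 1 input library held unpurified RNA of saline mice. The labels do not say what the yoked mice received, nor how many animals went into each library, so the spread between libraries is the error used here and may be in part technical. The purification keeps RNA of the tagged cells in excess but not to the exclusion of other cells.

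Retinol travels in blood bound to Rbp4 and is oxidised inside cells to retinoic acid, which the Crabp proteins hold in solution. Retinoic acid binds the retinoic acid receptors, nuclear receptors that act on DNA as heterodimers with a retinoid X receptor at paired half-sites known as retinoic acid response elements. In the striatum, Rarb and Rxrg are known as receptors of the spiny projection neurons, the main output neurons, and the dopamine receptor gene Drd2 is among the genes they act on.

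The best known of these response elements lies before a transcription start of Rarb itself. It is shown because Rarb was one of the 9 genes with the lowest ratio of purified to input RNA. The Rarb promoter window is also the only one of the set that holds such a repeat. The RefSeq promoter table for assembly GRCm38.p6 (the mm10 build) gave 16 windows, each from 250 bases before to 50 after a transcription start, for 8 of the 9 genes; it had no entry for Crabp2. Both strands were searched for 2 half-sites in direct repeat, each of them the consensus AGGTCA or the variant AGTTCA, the variant GGGTCA or the variant GGTTCA, with a spacer of 1, 2 or 5 bases. A spacer of 5 bases was found in 1 of the 16 windows and in 0.0974% of all 32851 windows in the table. Spacers of 1 and 2 bases were in none of the 16, beside 0.222% and 0.268% of all windows, and a single half-site was in 8 of the 16 and in 43.7% of all. The stretch below is the 150 bases before the transcription start in the Rarb window, on the minus strand at chr14:16575477-16575626. It is written 5′ to 3′, with the half-sites of the repeat in capitals.
Rarb: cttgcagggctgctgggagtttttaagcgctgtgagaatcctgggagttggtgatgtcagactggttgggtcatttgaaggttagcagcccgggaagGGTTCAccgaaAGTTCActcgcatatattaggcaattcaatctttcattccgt
The repeat lies from 53 to 37 bases before the start, on the strand of the gene. A match of letters is a description of the sequence and does not show that a receptor was bound there.

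Library totals, to 6 significant digits, ran from 24526800 to 75220900 gene counts in the purified libraries and stood at 40912200 in the input. Levels are given as CPM, the count of a gene scaled to a library total of 1000000; since transcript lengths were not used, they are compared between libraries and not between genes. The 9 cholinergic markers summed to 4119 to 5410 CPM in the purified libraries and to 109.6 CPM in the input. Chat itself was at 477, 601 and 573 CPM in the saline libraries and 10.1 CPM in the input, and the vesicular acetylcholine transporter Slc18a3, which lies within the Chat gene, at 656, 960 and 1036 against 8.36 CPM. The 11 spiny neuron markers summed to 656.7 to 1559 CPM in the purified libraries and to 7521 CPM in the input. RNA of these markers was thus reduced and not removed, and which cells the remainder came from was not tested. Of the 9 purified libraries, the 3 numbered replicate 2 had the lowest mean correlation of log2 levels with the others, 0.939 to 0.955 against 0.968 to 0.972. The saline libraries were on lane 3, the cocaine and yoked libraries on lane 4 and the input on lane 5, so lane cannot be told apart from purification, nor from saline against the other treatments.

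The retinoid genes separated widely between purified and input RNA. Crabp2 and Rara were higher in all 9 purified libraries, Rxra slightly so, while Rbp4, Rarb and Rxrg were lower in all 9. These ratios rest on 1 input library and were part of the choice of the genes, so they are a description with no test. Against the 3 saline libraries, 4 of the 9 genes were above the input in all 3, as were 35.8% of the 15888 genes measured (at least 20 counts in the input or in the mean saline library). A further 4 were below it in all 3, as were 44.9% of genes, and Crabp1 lay on both sides. Of the 9 genes, Crabp2 was more than 4-fold above the input in all 3, beside 3.62% of genes, and Rarb and Rbp4 were more than 4-fold below it, beside 12.9% of genes. The median log2 ratio was 0.22 over the 9 genes and -0.03 over the 14294 genes with a count in every library compared.

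**Figure D1:**
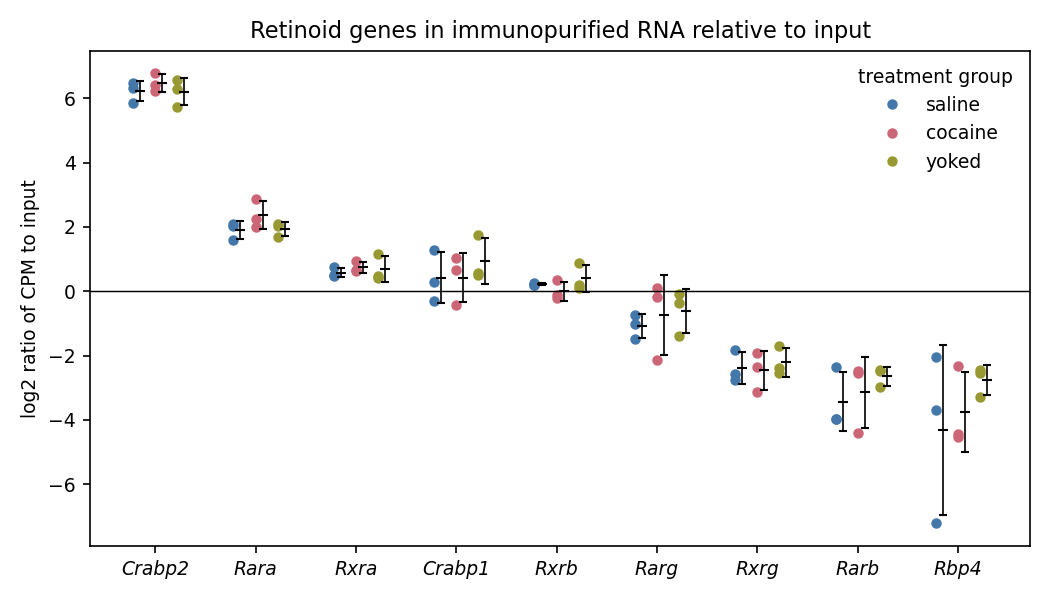
Log2 ratio of CPM in each purified library to the 1 input library (vertical axis) for the 9 retinoid genes, in order of their saline mean, with 1 point per library, colours for the 3 treatments and a bar for mean ± SD over 3 libraries. Crabp2 stands near 6 in every group and Rara between 1.59 and 2.86, whereas Rbp4, Rarb and Rxrg lie below 0 in all 9 libraries.

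Crabp2, which carries retinoic acid to its receptors in the nucleus, spans chr3:87948693-87953372. Its level was 140.0, 92.4 and 127 CPM with saline, 136, 119 and 175 CPM with cocaine and 151, 84.7 and 125 CPM in yoked controls. The input held 1.59 CPM from 65 counts. Every purified library was far above the input, and library 2 was the lowest of its group in each of the 3 treatments. The mean log2 ratio of the saline libraries was 6.22 ± 0.31 (SD, n = 3), which placed the gene at rank 18 of 14294. Over summed saline counts the ratio was 75.3, with a 95% counting interval of 59.0 to 97.6 that reflects the 65 input counts, and over the 9 libraries the ratio ranged from 53.3 to 109.8. The mean log2 ratios were 6.47 with cocaine and 6.20 in yoked controls.

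The ratio of Crabp2 was of the size of that of the cholinergic genes themselves, which was 5.76 ± 0.18 for Chat and 6.70 ± 0.35 for Slc18a3 (SD, n = 3). Per 100 CPM of Chat, Crabp2 gave 29.4, 15.4 and 22.3 CPM with saline, 22.9, 17.0 and 30.2 with cocaine, 24.9, 14.97 and 23.2 in yoked controls and 15.7 in the input. The input thus lay within the range of the purified libraries, near its lower end. The pattern most like Crabp2 was sought among 10246 other genes of at least 5 CPM as the smallest root mean square difference, over the 10 libraries, of log2(CPM + 0.5) centred on the purified mean. The nearest were Chat at 0.34, AI606473 at 0.37 and Ecel1, a peptidase listed here among the cholinergic markers, at 0.40, against a median of 1.87 over all those genes. AI606473 was between 99.5 and 149.6 CPM in the purified libraries and at 1.44 CPM in the input. This measure is dominated by the step between input and purified RNA, for which Crabp2 was chosen.

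Crabp1, which binds retinoic acid in the cytosol and is linked to its breakdown, lies at chr9:54764748-54773110 and behaved differently. It was at 18.7, 6.27 and 9.52 CPM with saline, 12.2, 5.73 and 15.9 CPM with cocaine and 11.1, 11.4 and 26.2 CPM in yoked controls, beside 7.75 CPM in the input. The input lay inside the range of the purified libraries: 7 of the 9 were above it, and the saline and cocaine libraries numbered 2 were below it. The saline log2 ratio was 0.42 ± 0.80, and without saline library 1 it was -0.0040. Of the counts of both Crabp genes together, Crabp2 took 17.0% in the input and a median of 91.8% in the purified libraries (82.7% to 95.4%). These are shares of counts, which depend on transcript length, and not of molecules.

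Rbp4, the retinol carrier of blood plasma, lies at chr19:38116620-38125321 and was scarce. It was at 2.26, 0.064 and 0.736 CPM with saline, 0.408, 0.439 and 1.90 CPM with cocaine and 0.964, 1.75 and 1.60 CPM in yoked controls, against 9.41 CPM in the input. All 9 purified libraries were below the input, by 4.16- to 148-fold. The saline log2 ratio was -4.31 ± 2.64, an error set by saline library 2, which held 2 counts of the gene beside 58 and 31 in the others. Over summed saline counts the gene was 10.2-fold lower (95% counting interval 8.14 to 13.0), and without saline library 1 it was 21.0-fold lower (14.7 to 30.9). It was 7.16-fold lower without saline library 2 and 8.95-fold lower without saline library 3.

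Among the retinoic acid receptors the order of the counts turned over between input and purified RNA. Rara, at chr11:98927800-98974942, was at 37.7, 40.0 and 27.9 CPM with saline, 44.5, 67.3 and 37.4 CPM with cocaine and 37.7, 39.7 and 30.2 CPM in yoked controls, against 9.29 CPM in the input. All 9 purified libraries were above the input, by 3.0- to 7.25-fold, and cocaine library 2 was the highest. The saline log2 ratio was 1.90 ± 0.28, at rank 852 of 14294, and the ratio over summed counts was 3.69 (3.32 to 4.11).

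Rarb, at chr14:16430839-17082331, went the other way. It was at 28.8, 9.45 and 9.45 CPM with saline, 26.5, 6.93 and 25.4 CPM with cocaine and 18.7, 26.5 and 26.8 CPM in yoked controls, against 147 CPM in the input. Saline libraries 2 and 3 and cocaine library 2 were below 10 CPM and the other 6 at or above 18.7 CPM, and all 9 were 5.12- to 21.3-fold below the input. The saline log2 ratio was -3.43 ± 0.93, and the gene was 10.2-fold lower over summed counts (9.63 to 10.8). It was 15.6-fold lower (14.4 to 16.9) without saline library 1, 8.79-fold without saline library 2 and 8.12-fold without saline library 3. The stretch with the repeat printed above, at chr14:16575477-16575626, lies inside this span, before an internal transcription start.

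Rarg, the receptor best known from skin, lies at chr15:102234938-102257522 and had few counts. Its levels were 2.50, 1.496 and 2.07 CPM with saline, 0.938, 3.71 and 4.48 CPM with cocaine and 1.58, 3.95 and 3.20 CPM in yoked controls, against 4.16 CPM in the input. Only cocaine library 3 exceeded the input. Over summed saline counts it was 2.08-fold lower (1.69 to 2.57). Of the counts of the 3 retinoic acid receptor genes, Rarb took 91.6% in the input and a median of 36.9% in the purified libraries (8.88% to 44.5%), while Rara took 5.77% and 61.9% (50.2% to 86.4%). Rara thus had more counts than the other 2 together in every purified library, and fewer in the input.

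The retinoid X receptors, the shared partners of the retinoic acid receptors, differed less. Rxra, at chr2:27676445-27763319, was at 51.2, 43.6 and 43.0 CPM with saline, 48.0, 58.5 and 47.8 CPM with cocaine and 40.8, 67.8 and 42.9 CPM in yoked controls, against 30.7 CPM in the input. All 9 purified libraries exceeded the input, by 1.33- to 2.21-fold. Its saline log2 ratio of 0.58 ± 0.14 was exceeded by 30.5% of genes, so the excess was common among measured genes.

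Rxrb, the widely expressed member at chr17:34031812-34038403, stayed close to the input. It was at 27.1, 28.3 and 27.2 CPM with saline, 21.8, 20.2 and 29.9 CPM with cocaine and 27.2, 43.4 and 25.5 CPM in yoked controls, against 23.6 CPM in the input. The input lay inside the range of the purified libraries, of which 7 were above it, and the saline log2 ratio was 0.22 ± 0.03.

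Rxrg, at chr1:167598362-167639623, was low in purified RNA. It was at 10.3, 17.4 and 9.00 CPM with saline, 12.1, 7.07 and 16.2 CPM with cocaine and 11.6, 10.6 and 18.7 CPM in yoked controls, against 61.3 CPM in the input. All 9 libraries were 3.28- to 8.67-fold below the input, and the saline log2 ratio was -2.39 ± 0.50. Of the counts of the 3 retinoid X receptor genes, Rxrg took 53.1% in the input and a median of 14.6% in the purified libraries, while Rxra took 26.5% and 54.3%.

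**Figure D2:**
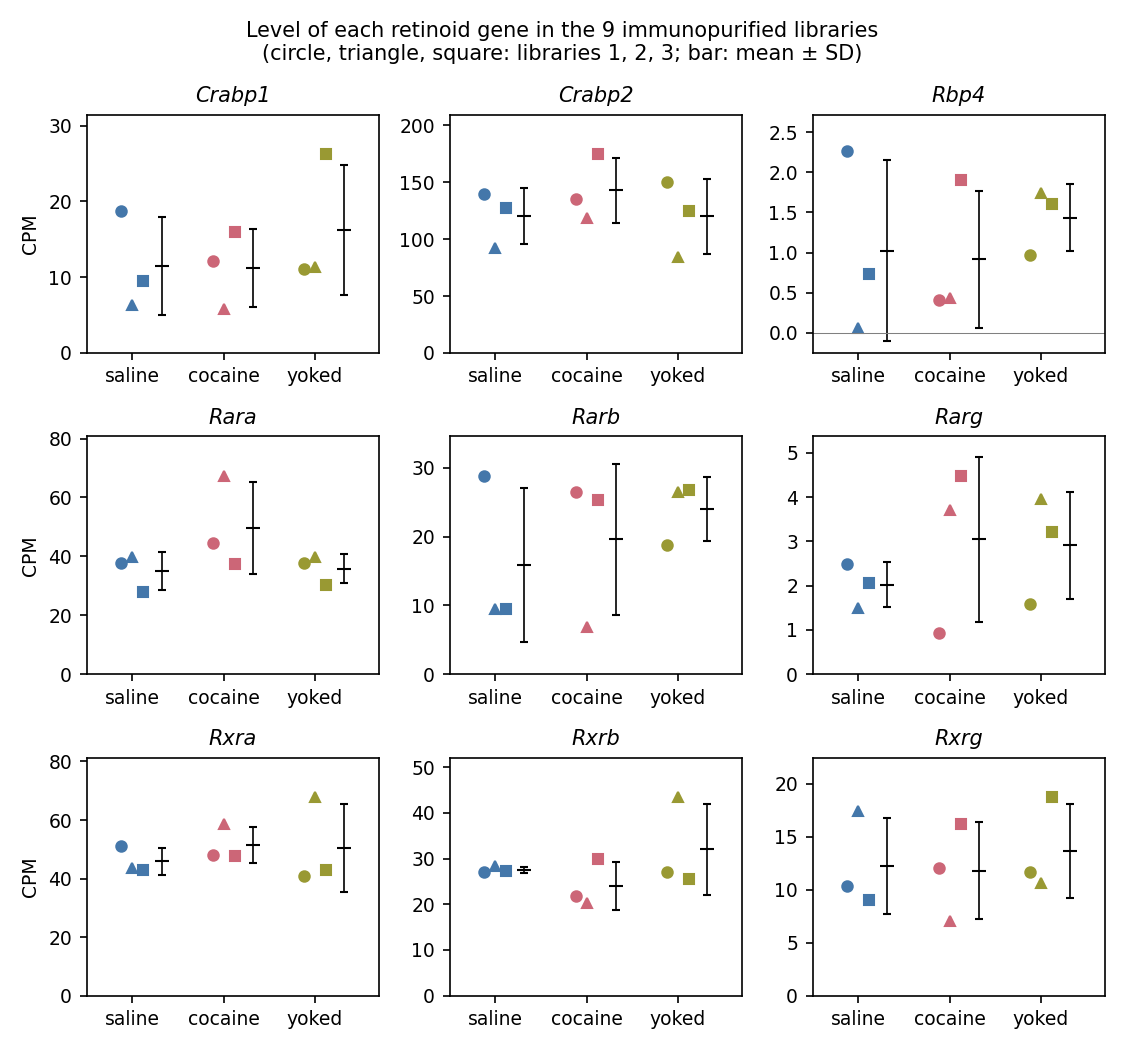
Level in CPM (vertical axes, 1 scale per gene) of the 9 retinoid genes in the saline, cocaine and yoked purified libraries, with circles, triangles and squares for libraries 1, 2 and 3 and bars for mean ± SD. The 3 groups overlap for all 9 genes, and cocaine library 2 is the high point of Rara and the low point of Rarb.

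The spread over the 9 purified libraries differed between the genes. The coefficient of variation was 17.9% for Rxra, 21.6% for Crabp2, 23.7% for Rxrb, 28.1% for Rara and 31.7% for Rxrg, against a median of 19.98% over the 10247 tested genes of at least 5 CPM. It was 44.8% for Rarb, 46.5% for Rarg, 49.6% for Crabp1 and 68.9% for Rbp4. The 5 most variable genes were thus Crabp1 and the 4 that lay below the input in all 3 saline libraries.

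The 3 libraries lowest in Rarb were also the 3 with the smallest summed spiny neuron markers, at 716, 656.7 and 671.4 CPM in saline 2, saline 3 and cocaine 2, while the other 6 held 924.8 to 1559 CPM. The parallel was not limited to spiny neurons: the 7 oligodendrocyte markers summed to 238.5, 260.8 and 309.2 CPM in those 3 libraries, to 307.3 CPM in yoked library 2 and to 404.9 to 549 CPM in the other 5. The 7 microglia markers summed to 4.741, 7.458 and 3.337 CPM in those 3 and to 9.092 to 13.9 CPM in the other 6. Not all cell types followed. The 7 astrocyte markers summed to 310.5, 232.7 and 280.3 CPM in those 3, but to 285.7 CPM in cocaine library 3. The 8 markers of other striatal interneurons summed to 39.81, 36.29 and 62.24 CPM in those 3, beside 29.48 CPM in saline library 1. Set against the spiny neuron markers, Rarb amounted to 10.3 to 28.7 CPM per 1000 CPM of markers in the purified libraries. It amounted to 19.6 in the input, which lay inside that range. Rxrg amounted to 6.61 to 24.3 in the purified libraries and 8.15 in the input. The input value of Rxrg was near the lower end of that range. The part of RNA from spiny neurons or oligodendrocytes in the levels of Rarb and Rxrg was not tested. Rbp4 was at 0.089 to 1.89 CPM per 1000 CPM of the same markers and at 1.25 in the input. Among markers of tissue that borders the striatum, the 8 leptomeningeal fibroblast markers summed to 0.032 to 2.14 CPM in purified RNA and 8.21 CPM in the input. The 7 choroid plexus and ependymal markers summed to 5.82 to 23.6 CPM in 8 of the purified libraries, to 95.6 CPM in saline library 3, where Ttr alone made up 85.8 CPM, and to 26.5 CPM in the input. Since these are bulk libraries, fewer cells of a type, less RNA per cell and less of their RNA kept through the purification cannot be told apart.

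**Figure D3:**
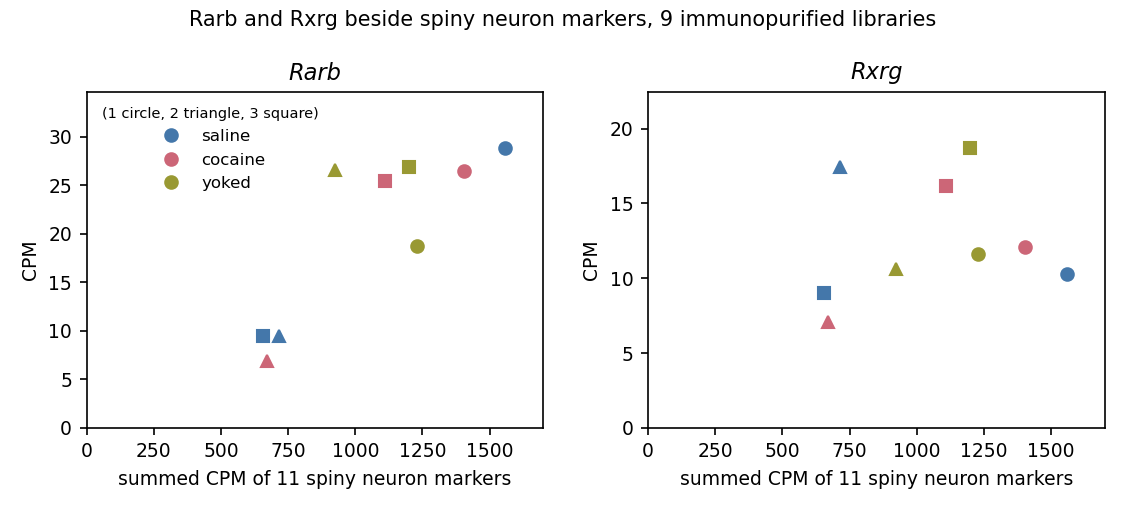
CPM of Rarb (left) and Rxrg (right) against the summed CPM of 11 spiny neuron markers in the 9 purified libraries, with colours for treatment and circles, triangles and squares for libraries 1, 2 and 3. The 3 libraries below 10 CPM of Rarb are the 3 with the smallest marker sums, while no such separation is seen for Rxrg.

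The treatment groups were compared to ask whether these genes differ with cocaine or the yoked condition. No retinoid gene passed the test. All 9 passed the low-count filter of edgeR, and 0 of the 9 had an adjusted p under 0.05 in any comparison, as had 0% of the 14989 genes tested (edgeR quasi-likelihood test with Benjamini-Hochberg adjustment over all genes). DESeq2 also called 0 genes in each comparison. At an unadjusted p under 0.05, edgeR listed 5.28% of all genes between cocaine and saline, 2.61% between cocaine and yoked and 2.18% between yoked and saline, and of the 9 genes 1, 1 and 0 (DESeq2 listed 987, 538 and 471 genes in all). A test for any difference among the 3 groups also called 0 genes, with 2.8% of all genes and 0 of the 9 at an unadjusted p under 0.05. In none of the 9 genes did 2 groups stand apart without overlap, whereas 10.3%, 6.78% and 7.05% of all genes did so in the 3 comparisons. Each pair of comparisons shares a group of 3 libraries, so their values are not independent.

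Rara was the retinoid gene with the smallest p in both comparisons of cocaine. Its mean was 49.7 ± 15.6 CPM with cocaine, 35.2 ± 6.44 with saline and 35.9 ± 4.98 with yoked treatment (SD, n = 3). The log2 fold change was 0.53 against saline (95% interval 0.02 to 1.05, edgeR adjusted p = 0.850) and 0.52 against yoked (0.0065 to 1.04, edgeR adjusted p = 0.9997). Cocaine libraries 1 and 2, at 44.5 and 67.3 CPM, stood above all saline and yoked libraries, and cocaine library 3, at 37.4 CPM, lay inside both ranges. Without cocaine library 2 the log2 fold changes of Rara were 0.23 and 0.21, and without the 3 libraries numbered replicate 2 they were 0.31 and 0.24. Yoked and saline libraries differed by 0.01 (-0.50 to 0.53).

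Crabp2 was at 143 ± 28.6 CPM with cocaine, 120.0 ± 24.6 with saline and 120.1 ± 33.2 with yoked treatment. The log2 fold change was 0.26 against saline (-0.24 to 0.76) and 0.27 against yoked (-0.23 to 0.77), and -0.0072 for yoked against saline (-0.51 to 0.49). These intervals lie inside a doubling or halving of Crabp2 and leave smaller differences in either direction unresolved.

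For Rarb the means were 19.6 ± 10.99 CPM with cocaine, 15.9 ± 11.2 with saline and 24.0 ± 4.59 with yoked treatment. The log2 fold changes were 0.30 against saline (-0.70 to 1.31), -0.28 against yoked (-1.28 to 0.72) and 0.58 for yoked against saline (-0.42 to 1.59). The intervals against saline take in a doubling of Rarb but not a halving. That of cocaine against yoked takes in a halving but not a doubling. A difference of that size in that direction could not be resolved at this spread.

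The remaining 6 genes had log2 fold changes of -0.19 to 0.61 when cocaine was set against saline, -0.63 to 0.12 when it was set against yoked, and 0.11 to 0.49 between yoked and saline. The narrowest intervals were those of Rxra, from -0.25 to 0.62, -0.36 to 0.51 and -0.33 to 0.55 in the same order. The widest were those of Rbp4, whose interval for cocaine against saline ran from -2.42 to 2.10. Over the 9 genes the median log2 fold change was 0.19, -0.20 and 0.19 in the 3 comparisons, against 0.0049, 0.0011 and -0.01 over all genes tested. The counts above and below 0 were 5 and 4, 4 and 5, and 8 and 1.

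**Figure D4:**
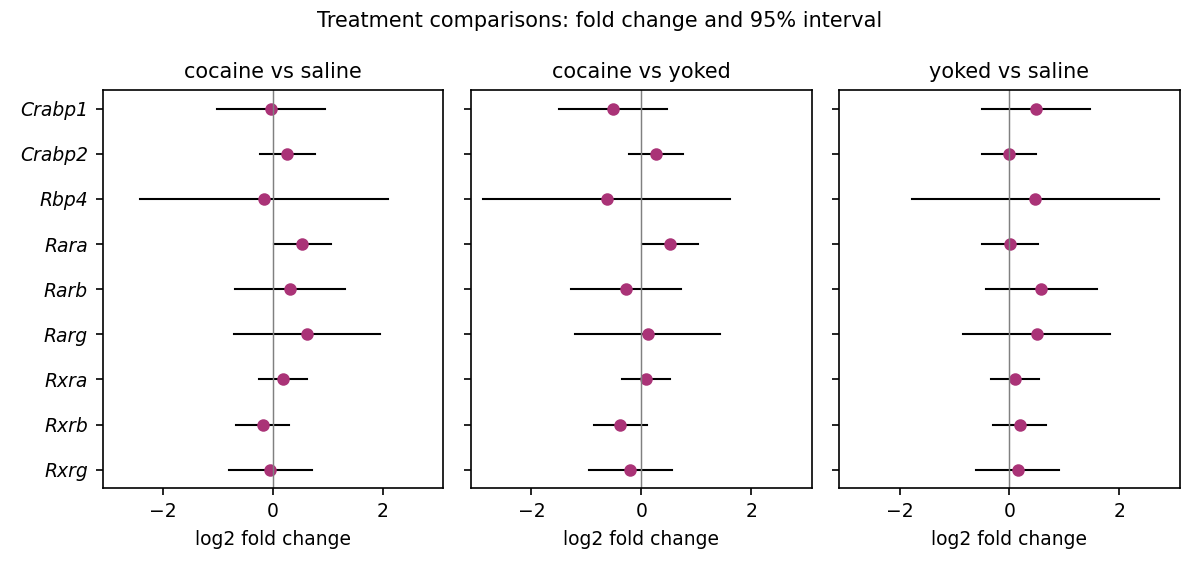
Log2 fold change (horizontal axes) with its 95% interval from the edgeR fit for the 9 retinoid genes in the 3 comparisons of treatments. All intervals include 0 except those of Rara in the comparisons of cocaine, and Rbp4 has the widest.

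The other genes of the retinoid pathway were grouped by role in 6 lists of 58 genes found in the files. Of 10 carrier and uptake genes 5 were measured, and 0 were above the input in all 3 saline libraries, 3 below and 2 on both sides. The receptor for Rbp4, Stra6, was 21.0-fold lower over summed saline counts (95% counting interval 10.5 to 47.6) and Rlbp1, a retinaldehyde binding protein, was 19.4-fold lower (12.7 to 31.0). Saline library 1 held 22 of the 24 saline counts of Rlbp1, and without it the gene was 172.5-fold lower (47.1 to 1435) and Stra6, with 4 counts left, 35.1-fold lower (13.2 to 131.8). Without saline libraries 2 and 3 in turn, Rlbp1 was 13.2- and 12.2-fold lower and Stra6 16.1- and 18.1-fold lower. Fabp5, a fatty acid binding protein that also takes up retinoic acid, was near the input with a ratio of 1.15 (1.04 to 1.28). Transthyretin, Ttr, the plasma partner of Rbp4, had a ratio of 7.52 that rested on saline library 3 alone, with 85.8 CPM there, 2.23 and 0.286 CPM in the other saline libraries and 4.94 CPM in the input.

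Of 18 genes of retinaldehyde and retinoic acid synthesis, 13 were measured, with 5 above the input in all 3 saline libraries and 4 below. The 2 lowest were Aldh1a1, a retinaldehyde dehydrogenase, at 14.8-fold lower (12.4 to 17.8), and the retinaldehyde reductase Dhrs3, 14.3-fold lower (11.2 to 18.5). The highest were Rdh13 with a ratio of 2.43, Dhrs4 with 2.14 and Rdh14 with 1.94, all of the retinol dehydrogenase and related reductase families. Dhrs4 rested on saline library 2, with 33.1 CPM against 6.33 and 4.96 CPM in the others. The 1 measured gene of retinoic acid breakdown, the hydroxylase Cyp26b1, was 14.1-fold lower (9.41 to 21.9). Of its 28 saline counts 27 were in saline library 3, and without that library the gene was 227-fold lower (40.2 to 9030). Without saline libraries 1 and 2 in turn, Cyp26b1 was 10.85- and 9.635-fold lower.

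Of 11 nuclear receptors that pair with retinoid X receptors, 10 were measured, with 2 above the input in all 3 saline libraries and 6 below. The bile acid receptor Nr1h4 was at 8.94, 11.9 and 7.79 CPM in the saline libraries and between 6.81 and 10.6 CPM in the other purified libraries, against 0.22 CPM from 9 counts in the input. Its ratio over summed saline counts was 42.6, and the 9 input counts leave it a 95% counting interval of 22.4 to 93.6. The thyroid hormone receptor Thra had a ratio of 2.33 (2.29 to 2.38) and the liver X receptor Nr1h2 one of 1.85 (1.67 to 2.06). Nr1h2 lay on both sides of the input, at 23.2, 9.07 and 24.7 CPM with saline against 10.5 CPM. Pparg had 60 counts in the input and 0 in the saline libraries, at least 48.5-fold lower against a floor of 3 counts over the 3 libraries; the 95% counting limit, which also covers the error of the input counts, was 38.2-fold. Nr4a2, an orphan receptor of dopamine neurons and an early response gene, was 11.2-fold lower.

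All 9 receptor coregulators were measured, with 1 above the input in all 3 saline libraries and 7 below. Nrip1 had a ratio of 1.21 and Ncoa2 of 0.93 (0.925), while Ncoa1 was 2.53-fold and Crebbp 2.05-fold lower. Of 13 genes known to be induced by retinoic acid, 8 were measured, with 3 above the input in all 3 saline libraries and 4 below. Ret, the receptor of glial cell line-derived growth factors, was 18.5-fold higher (13.8 to 25.5) and the dopamine receptor Drd2 5.39-fold higher (5.27 to 5.51), whereas Stra6 and Dhrs3 are the low genes already named. In the 6 lists, taken in the order carriers, synthesis, breakdown, partner receptors, coregulators and targets, the median log2 ratio over summed saline counts was -1.18, 0.10, -3.82, -1.90, -0.52 and -0.90, with Pparg at its floor. The same median was -0.13 over all measured genes and 0.22 over the 9 binding proteins and receptors.

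**Figure D5:**
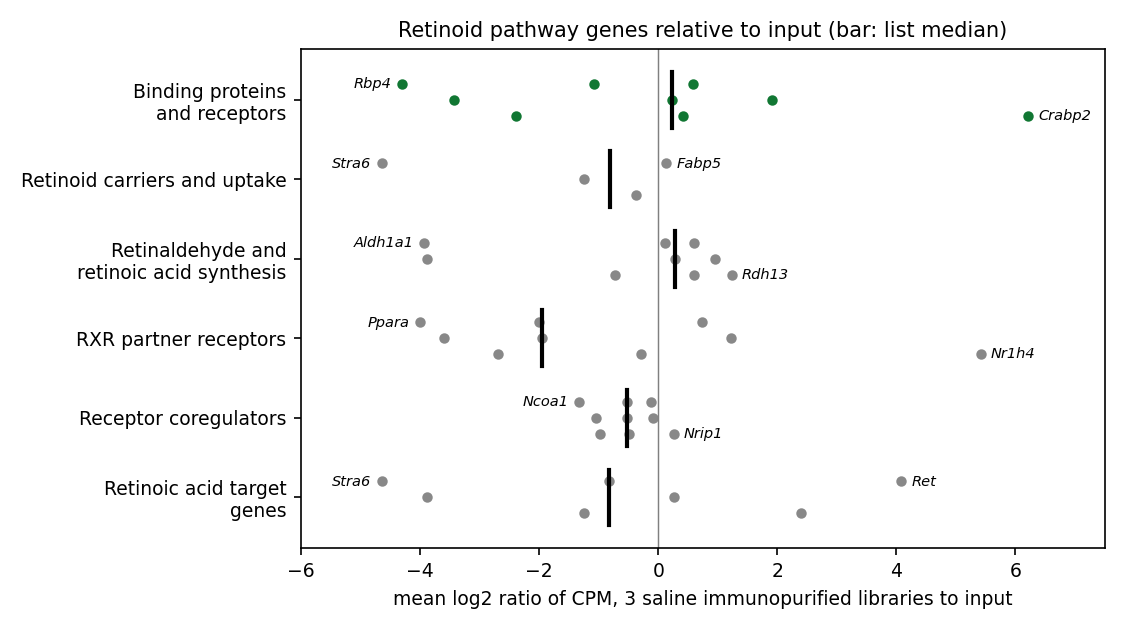
Mean log2 ratio of CPM, 3 saline purified libraries to the 1 input library (horizontal axis), for the 9 retinoid genes (green) and 5 pathway lists (grey), with 1 point per gene that had a count in each of these libraries, a bar at the list median and the highest and lowest genes named. Crabp2, Nr1h4 and Ret lie farthest to the right, and Stra6 farthest to the left.

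No gene of these lists passed the test between treatments, with 0 called in each list and comparison by edgeR with Benjamini-Hochberg adjustment, beside 0% of all genes. For cocaine against saline, the genes with the smallest p in 5 of the lists, none of them passing, were Ttr (log2 fold change -4.60), Dhrs4 (-1.62), Cyp26b1 (1.52), Nr4a2 (1.02) and Drd2 (0.65). The first of these values was 0.06 without saline library 3, in which Ttr was high. That of Cyp26b1 was 5.02 without the same library, which leaves 1 saline count. That of Dhrs4 was -0.25 without saline library 2, and that of Drd2 was 0.14 without cocaine library 2, where Drd2 was at 2430 CPM beside 915 to 1213 CPM in the other 8 libraries. Nr4a2 was at 14.1, 13.5 and 9.19 CPM with cocaine and 7.03, 3.47 and 7.81 CPM with saline. These groups did not overlap, as was so for 10.3% of all genes tested and, in these lists, also for Bco1. With yoked treatment Nr4a2 was at 7.55, 18.2 and 5.68 CPM, a range that took in all 3 cocaine libraries and overlapped the saline group.

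For cocaine against yoked, the genes with the smallest p were Ttr, Rdh12 (log2 fold change 2.49, and 0.91 without cocaine library 2), Cyp26b1, Ppara, the acetyltransferase Ep300 (0.48, and 0.26 without cocaine library 2) and Drd2 (0.69, and 0.17 without cocaine library 2). Ep300 was at 76.1, 107 and 76.4 CPM with cocaine and 65.2, 57.3 and 69.5 CPM with yoked treatment. These groups did not overlap, as was so for 6.78% of all genes tested and, in these lists, also for Med1 and Ppara. The adjusted p of Ep300 did not pass. For yoked against saline the genes with the smallest p were Ttr, Dhrs4, Cyp26b1, Ppard, Nrip1 and Ret. The log2 fold change of Dhrs4 was -1.42, and -0.05 without saline library 2. That of Ppard was -0.71, and -0.33 without saline library 3. That of Ret was 0.59, and 0.265 without yoked library 3. The list medians for cocaine against saline ran from -0.0055 for the partner receptors to 1.52 for the single breakdown gene, those between cocaine and yoked from 0.09 to 0.57 and those between yoked and saline from -0.05 to 0.95.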

How the data were processed

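The authors deposited whole-number counts of reads for each gene symbol, unscaled, in a file for each library. STAR 2.0.0e, HTSeq and the build mm10 are named per the submitters' processing notes; the annotation, the strand setting and read filters are not given in the sources used here, so reads of overlapping genes cannot be told apart. The 5 rows of unassigned reads were left out of totals. The 9 genes and all gene lists were chosen with earlier results of these data known.

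Counts were scaled to CPM. Ratios to input carry exact 95% counting intervals, which cover counting error only. In R 4.3.3, all 9 purified libraries entered 1 fit of edgeR 4.0.16 (quasi-likelihood F-test, robust, trimmed mean of M-values scaling, minimum count 10, minimum total 15), which left 14989 of 22641 genes and 6 residual degrees of freedom. A gene was called at a Benjamini-Hochberg adjusted p under 0.05; DESeq2 1.42.0 was an alternative. The fit was also run on simulated counts without lane or replicate effects, so that run does not vouch for the treatment results in these libraries.

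Named were all 9 genes, Chat and Slc18a3, of each pathway list the gene with the smallest p per comparison and, against the input, up to 3 highest and 2 lowest ratios over summed saline counts, and the 3 genes most like Crabp2. Some genes that this rule takes are not reported here. Coordinates are those of 9 RefSeq genes matched by symbol in GRCm38.p6. The labels give replicate numbers but do not say what they share. Deviations of same-numbered saline and yoked libraries correlated at 0.30 (0.295), 0.20 (0.205) and 0.19 over 10247 genes, so that the numbers were taken to pair these groups; for cocaine with saline they correlated at 0.27, 0.07 and 0.05 and for cocaine with yoked at 0.25, 0.07 and 0.23, which do not meet that standard of 0.1 in every pair. Ratios over summed saline counts were also taken without each saline library, a choice made after seeing the data. The fold changes and intervals given for treatments come from the fit without the replicate number as a block. Those of yoked against saline thus do not use the pairing. The fit with the block is given by its calls, smallest adjusted p and changes of sign.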

Additional observations from a re-analysis of the deposited data

How the results depend on the processing

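With the replicate number as a block, 0 genes were called in each comparison (smallest edgeR adjusted p 0.710 between cocaine and saline, 0.933 between cocaine and yoked, 0.999 between yoked and saline and 0.904 for any difference), and the block turned only the sign of Rbp4 for cocaine against saline, to 0.027; it changed no call. Without the filter on low counts, edgeR called 60, 27, 18 and 98 genes in these comparisons, none of them among the 9 retinoid genes. No other alternative called a gene: DESeq2, its size factors in edgeR, leaving out any 1 library, or leaving out the 3 libraries numbered 2, a choice made after seeing the data.

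Some log2 fold changes changed sign when single libraries were left out. Leaving out 1 library at a time, those for cocaine against saline ran from -0.34 to 0.49 for Crabp1, from -1.21 to 1.13 for Rbp4 and from -0.33 to 0.28 for Rxrg. For cocaine against yoked they ran from -0.83 to 0.027 for Crabp1, from -0.56 to 0.13 for Rarb, from -0.22 to 0.55 (0.545) for Rarg, from -0.050 to 0.31 for Rxra and from -0.48 to 0.11 for Rxrg. For yoked against saline they ran from -0.058 to 1.01 for Crabp1, from -0.22 to 0.23 for Crabp2, from -0.08 to 1.77 for Rbp4, from -0.12 to 0.11 for Rara, from -0.10 to 0.22 for Rxra, from -0.037 to 0.32 for Rxrb and from -0.16 to 0.48 for Rxrg (0.66 without the 3 libraries numbered 2). The saline log2 ratio of Crabp1 to input ran from -0.0040 to 0.79. Without the 3 libraries numbered 2, the sign turned for Rxrg in cocaine against saline (0.54), Rarb in cocaine against yoked (0.16), and Crabp2 (0.06), Rbp4 (-0.20), Rxra (-0.15) and Rxrb (-0.03) in yoked against saline. Without the filter, Crabp2 in yoked against saline was 0.0042. Of the ratios to input, adding 0.5 CPM moved that of Rbp4 from -4.31 to -2.99 and that of Crabp2 to 5.83, and scaling by trimmed means moved that of Rxrb to 0.32. The cause of these shifts was not tested. Rbp4 and Rarg have few counts, and 1 input library sets every ratio.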
